A study of Mus musculus with 12 samples.

Results

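The tumour neutrophils described here are 149 cells among 7366 cells of 12 mammary tumours, or 2.02% of the cells kept. A cell was counted as a neutrophil when it had 200 or more detected genes, when S100a8 and S100a9, the calprotectin subunits that fill the neutrophil cytoplasm, made up 1% or more of its transcripts, and when Csf3r, Clec4d, Hdc and Cyp4f18 together gave 1 or more transcripts. It could hold at most 1 transcript of the macrophage complement genes C1qa, C1qb and C1qc and at most 2 of the epithelial genes Epcam, Krt8 and Krt18. The cells were thus chosen by the measured counts of these 12 genes, so their levels, and any contrast of neutrophils with other cells, are given as a description with no test. Transcripts were counted as unique molecular identifiers (UMIs), 1 per captured RNA molecule, on the ddSEQ droplet platform with a 3′ tag kit. Levels are UMIs per 10000 UMIs of the neutrophils of a tumour. They were not divided by gene length, so they are compared between tumours and cell types for one gene at a time, not between genes.

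The tumours came from untreated FVBN mice carrying mMTV-Cre and the HER2 Crainbow transgene, in which Cre, driven in mammary epithelium, switches on an oncogenic form of HER2. All 12 tumours share these alleles, and no tumour or gland without the transgene was analysed here. The 8 nulliparous tumours were labelled with a form of HER2. The p95 group (p95 HER2, a truncated receptor; tumours p95 1 to p95 5) was 15 to 20 weeks old and metaplastic. The d16 group (d16 HER2, a splice form; d16 1 to d16 3) was 16 to 21 weeks old, with d16 1 solid nodular and the other 2 metaplastic. The other 4 tumours came from multiparous mice of 16 or 17 weeks without a labelled form of HER2, with multiparous 1 and 3 mixed and multiparous 2 and 4 solid nodular. The tumours p95 2 and d16 2, and likewise p95 4 and d16 3, carry the same number in their titles, and no label says whether that number marks a shared animal.

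Neutrophils are short-lived phagocytes made in the bone marrow. They first fill primary granules with myeloperoxidase and elastase, then secondary granules with lactoferrin and cathelicidin, and then leave for the blood, where they follow CXCR2 ligands into inflamed tissue. In tumours they are known as a source of interleukin 1, CXC and CC chemokines and oxidants, and as cells whose state differs from tumour to tumour.

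Regulatory sequence of some genes that hold a motif match is shown first. Of the 25 genes outside the rule with the highest ratio of neutrophils to other cells, 18 had a promoter in the RefSeq table of build GRCm38.p6. A pair of motifs was searched on both strands in the 250 bases before each start. GGGAA and CC with any 3 bases between them, a type bound by NF-kB, which drives inflammatory genes, was held by 2 of these 18 genes (Ccrl2 and Nlrp3) and by 5.62% of all 27025 genes in the table. TTGNNCAA, a type bound by C/EBP factors, which drive granulocyte genes, was held by 3 of the 18 (Clec4e, Retnlg and Slfn4) and by 6.51% of all genes. The chemokine genes Cxcl2 and Cxcl3, outside those 25, both held the NF-kB type, and their matches on the 2 strands overlap. Il1b and Ccl3, to which the results also return often, held neither motif in the 120 bases before the start and are not printed. The 120 bases that end just before the start are printed 5′ to 3′ on the gene's strand for the chemokine pair, for Ccrl2 (the 1 of its 3 starts that holds matches), and for Clec4e and Retnlg. They lie at chr5:90903779-90903898, plus strand; chr5:90785981-90786100, plus strand; chr9:111057519-111057638, minus strand; chr6:123289872-123289991, minus strand; and chr16:48872488-48872607, plus strand. Capitals mark the motif, NF-kB type in the first 3 and C/EBP type in the last 2, and a match is a run of letters, not a measured site.
Cxcl2: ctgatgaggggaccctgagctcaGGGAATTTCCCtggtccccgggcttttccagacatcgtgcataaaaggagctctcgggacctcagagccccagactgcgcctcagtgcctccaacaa
Cxcl3: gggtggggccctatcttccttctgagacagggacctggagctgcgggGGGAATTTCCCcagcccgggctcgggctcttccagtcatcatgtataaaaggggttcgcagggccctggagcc
Ccrl2: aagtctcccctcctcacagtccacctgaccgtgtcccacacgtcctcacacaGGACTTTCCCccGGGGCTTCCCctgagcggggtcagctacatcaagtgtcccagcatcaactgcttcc
Clec4e: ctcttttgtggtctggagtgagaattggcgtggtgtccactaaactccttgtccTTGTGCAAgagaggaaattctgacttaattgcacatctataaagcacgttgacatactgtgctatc
Retnlg: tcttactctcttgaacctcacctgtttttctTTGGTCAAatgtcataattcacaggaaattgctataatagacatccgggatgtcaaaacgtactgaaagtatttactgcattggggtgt

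The label neutrophil was set beside genes that the rule did not name. Of 39 measured genes of a neutrophil identity list outside the rule, 26 were higher in neutrophils than in the other kept cells of the same tumour in all 6 tumours with 10 or more neutrophils, and 19.0% of the 1485 genes with 10 or more neutrophil UMIs did so. Nothing is read from that comparison, because the same cells and contrast were used to choose the members. The formyl peptide receptor Fpr2 was at 13.4 ± 3.99 UMIs per 10000 (SD, n = 6 tumours) in neutrophils and at 0.142 in macrophages. A UMI of Fpr2 was found in 49.7% of the neutrophils and in 0.976% of epithelial cells, whose median depth was 2897 UMIs against 657 in neutrophils. Ifitm1, an interferon-inducible membrane protein, was at 40.7 ± 15.0 per 10000 against 1.45 in macrophages. Markers of granulocytes other than neutrophils were near 0, with 4 UMIs of 8 mast cell and basophil genes and 4 UMIs of 6 eosinophil genes among 101022. Ly6g, the usual surface marker of mouse neutrophils, is not a row of the tables read. Fpr2 and Ifitm1 ranked 6 and 10 by the ratio of neutrophils to other cells, so they were picked by the same contrast and do not test the label. Neutrophil is thus used here as the name of the cells that met the rule, and whether the label is right was not tested.

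Neutrophils were found in 9 of the 12 tumours, and their number set what could be measured. p95 3 held 42, or 6.65% of its kept cells (95% Clopper-Pearson interval 4.83% to 8.88%), and p95 2 held 36, or 4.77%. p95 5 held 16 (2.79%), multiparous 1 held 17 (2.49%), multiparous 3 held 15 (2.56%) and d16 2 held 13 (1.28%). These 6 tumours carry 139 of the 149 neutrophils and give all gene levels below. p95 4 held 4 neutrophils, d16 3 held 3 and multiparous 4 held 3, and the shares of these 3 tumours were 0.857%, 0.287% and 0.872%. None was found among 177 kept cells of p95 1, 363 of d16 1 and 729 of multiparous 2, which allows shares of up to 1.69%, 0.826% and 0.412% at 3 cells of the total. The upper ends of the Clopper-Pearson intervals of these tumours were 2.06%, 1.01% and 0.505%. Intervals and limits cover counting error only. Neutrophils were shallow cells, with a median of 657 UMIs against 2054 in macrophages (871 cells with 3 or more C1q UMIs) and 2172 in all other kept cells. Total UMIs per tumour ranged from 140348 to 4394398, and p95 1 and d16 1 were the shallowest, with medians of 452 and 449 UMIs per kept cell.

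**Figure D1:**
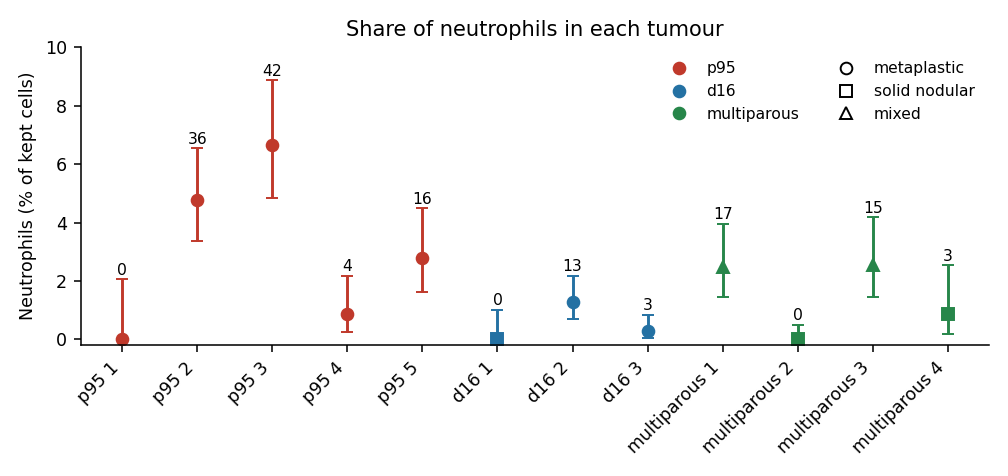
Neutrophils as a percentage of kept cells (y axis) in each of the 12 tumours (x axis), coloured by group and shaped by tumour phenotype, with 95% Clopper-Pearson intervals and the number of neutrophils above each. p95 2 and p95 3 stand highest at 4.77% and 6.65%, and 3 tumours are at 0.

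No share differed between groups beyond the spread of tumours. The d16 tumours averaged 0.523% ± 0.674 (SD, n = 3) and the p95 tumours 3.01% ± 2.74 (SD, n = 5), a difference of -2.49 percentage points (two-sided exact permutation test, p = 0.25, adjusted over 3 comparisons p = 0.375; the smallest p this design allows is 0.0357). It was -0.217 with 500 detected genes required and -1.40 with S100a8 and S100a9 at 3% or more. All 3 d16 tumours lay inside the p95 range, which runs from 0 to 6.65%. Multiparous tumours averaged 1.48% ± 1.26 (SD, n = 4) and nulliparous tumours 2.08% ± 2.47 (SD, n = 8), with p = 0.715 by the same exact test and the same value after adjustment. That difference, -0.600 percentage points, turned to 0.0525 without p95 3 and to 0.0495 when 500 detected genes were required. Solid nodular tumours averaged 0.291% ± 0.504 (SD, n = 3), from 0 to 0.872%, and metaplastic tumours 2.38% ± 2.51 (SD, n = 7), with a median of 1.28% (exact permutation p = 0.167, adjusted p = 0.375). The difference was -2.09 percentage points, and -0.254 with 500 detected genes required and -1.31 at 3% S100a8 and S100a9. The groups overlapped, since metaplastic p95 1 also held none. No label says that the tumours of a group came from separate mice, so these p-values measure the spread between tumours. Relative to macrophages, neutrophils numbered 124 per 100 in p95 3, 73.9 in multiparous 1 and 36.7 in p95 2, and between 0 and 25.9 in the other 9 tumours. With each cell thinned to 500 UMIs the share was 2.15% in p95 2, where 26 of the 36 neutrophils held fewer, and 0.10% in d16 3, and p95 3 had 6.55%. Of the other 6 tumours with neutrophils, 4 had lower shares after thinning and multiparous 1 and 3 the same.

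The chemokines that draw neutrophils and monocytes differed several-fold between the neutrophils of different tumours. Cxcl2, a CXCR2 ligand, was at 809 UMIs per 10000 in the neutrophils of p95 3, 479 in multiparous 1, 446 in multiparous 3, 404 in p95 5, 154 in p95 2 and 105 in d16 2. The first 4 tumours stood apart from p95 2 and d16 2, with no value between 154 and 404. p95 2 and d16 2 also share a title number and a file layout that the other 4 do not, as given below. A Cxcl2 UMI was present in 94.6% of neutrophils and in 42.3% of epithelial cells, and its level was 7.82 per 10000 in epithelial cells and 121 in macrophages. In d16 2 the level was 105 in neutrophils and 174 in macrophages of the same tumour, and in the other 5 tumours neutrophils were above macrophages. Ccl3, a chemokine that draws monocytes and neutrophils, was at 235 in p95 3, 180 in multiparous 1, 118 in multiparous 3, 101 in p95 5, 81.9 in p95 2 and 30.2 in d16 2, against a macrophage mean of 5.80. Its neutrophil level was above that of macrophages in all 6 tumours. Its neighbour Ccl4 spread more widely, from 6.48 in d16 2 through 17.8, 20.2, 109 and 148 to 167 in p95 3. Cxcl3, another CXCR2 ligand, ran from 1.08 in d16 2 (1 UMI) and 19.2 in p95 2 to 97.6 in p95 5. For each of these 4 chemokines d16 2 was the lowest tumour. Cxcl1 did not follow them: it was at 49.3 in p95 2 and 34.6 in p95 3 but 4.33 to 11.5 in the other 4 tumours, and its mean of 19.2 was below those of macrophages (46.9) and of all other kept cells (35.6).

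Il1b was held by nearly every neutrophil, and its antagonist and decoy receptor by most. Il1b, which encodes interleukin 1 beta, was at 231 per 10000 in p95 3, 219 in p95 5, 173 in multiparous 3, 149 in multiparous 1, 85.3 in d16 2 and 57.2 in p95 2. A UMI was found in 92.6% of neutrophils and 8.81% of epithelial cells. As for Cxcl2, p95 2 and d16 2 were the lowest tumours. Il1rn, the receptor antagonist that blocks interleukin 1, was at 99.0 in multiparous 1, 91.7 in p95 3, 45.7 in p95 5, 37.0 in p95 2, 27 in multiparous 3 and 13 in d16 2. Il1r2, the decoy receptor, had a narrower range of 19.3 to 44.3 and was highest in d16 2. Il1a was at 33.6 in p95 3 and 28.2 in multiparous 1, and from 3.95 to 11.4 in the other 4 tumours. Tnf was at 54.4 in p95 3 and 21.0 in multiparous 1, and at 5.75 or lower elsewhere, and only 22.1% of neutrophils held a UMI of it against 16.9% of the deeper epithelial cells. Il6, Il10 and Tgfb1 gave 6, 5 and 1 UMIs in all.

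Within tumours the same genes varied from cell to cell. The median neutrophil of p95 3 gave 6.08% of its UMIs to Cxcl2, and the highest cell 24.5%. In d16 2 the median was 0.811% and the highest 5.97%. No single cell carried these values, because without the neutrophil richest in Cxcl2 the levels were 761 in p95 3 and 78.5 in d16 2. Across all 22 measured cytokine genes the summed level was 1807 per 10000 in p95 3, 1178 in multiparous 1, 1100 in p95 5, 919 in multiparous 3, 490 in p95 2 and 319 in d16 2. This order puts p95 2 and d16 2 below the other 4 tumours, and d16 2 below the macrophage mean of 345. Of the 22 genes, 9 were higher than in other kept cells in all 6 tumours, beside 19.0% of the 1485 genes with 10 or more UMIs, and as above nothing is read from this contrast.

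**Figure D2:**
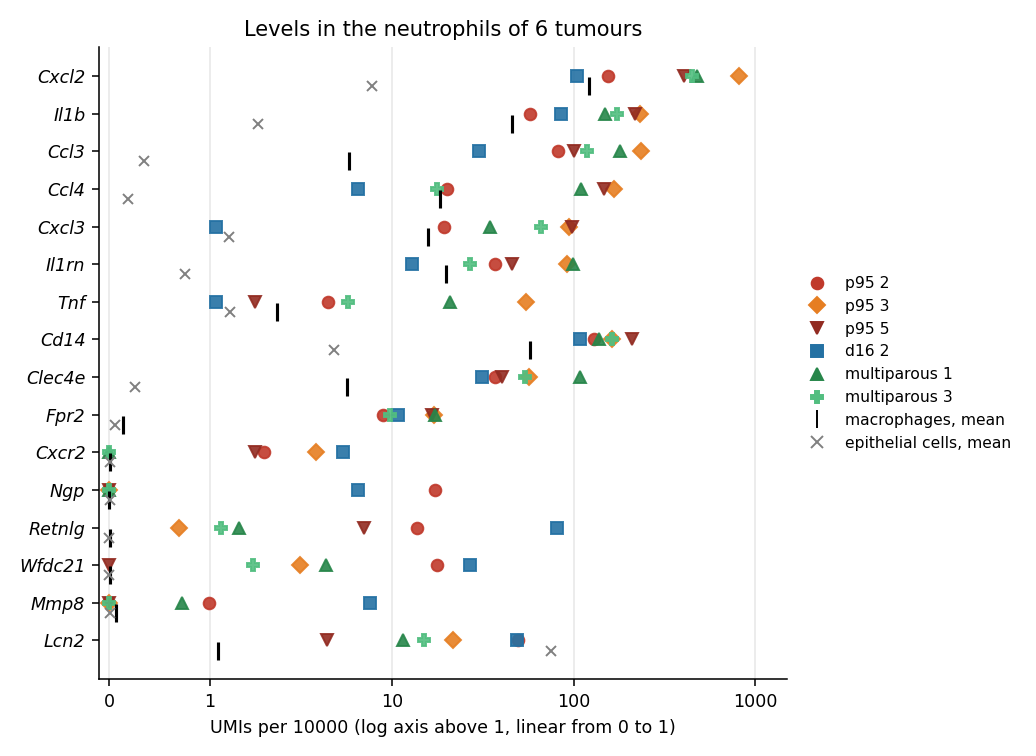
Levels of 16 genes (y axis) as UMIs per 10000 (x axis, log above 1 and linear from 0 to 1) in the neutrophils of 6 tumours, with the mean over the same tumours in macrophages (bar) and epithelial cells (cross) just below each gene. d16 2 (blue squares) is lowest for Cxcl2, Ccl3, Ccl4 and Cxcl3 and highest for Retnlg, Wfdc21 and Mmp8. Its Mmp8 UMIs all lay in 1 cell.

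Receptors that sense microbes, damage and chemoattractants were, as a sum, more even across tumours than the cytokines. Their summed level, 2 rule genes included, ran from 405 in p95 2 to 655 in p95 5, against 172 in macrophages and 8.39 in epithelial cells, and 17 of the 24 measured members outside the rule exceeded the other kept cells in all 6 tumours, beside 19.0% of genes. Cd14, a co-receptor for lipopolysaccharide, was at 209 in p95 5, 163 in p95 3, 163 in multiparous 3, 139 in multiparous 1, 129 in p95 2 and 109 in d16 2. Its highest level was 1.92 times its lowest. The same ratio was 3.46 for Clec4e, 6.25 for Trem1 and 7.16 for Ccrl2. On the cytokine list it was 2.29 for Il1r2, 4.04 for Il1b, 7.72 for Cxcl2 and 25.8 for Ccl4, so single genes overlapped. Clec4e (Mincle), a lectin receptor for damaged cells and mycobacterial glycolipid, was at 108 in multiparous 1 and between 31.3 and 57.1 in the other 5. Ccrl2, a non-signalling receptor that presents chemerin, was likewise highest in multiparous 1, at 95.4, with 13.3 to 43.6 elsewhere. Trem1, which amplifies Toll-like receptor signals, was at 27 in p95 3 and 25.5 in p95 5 and from 4.32 to 10.3 in the other 4. The signalling adaptors Fcer1g and Tyrobp were at 41.5 ± 12.4 and 44.4 ± 17.4 (SD, n = 6). Receptors that govern release from marrow and homing were sparse. Cxcr2, the receptor for Cxcl2, gave 24 UMIs in 17 of 149 cells, or 11.4% against 0.152% of epithelial cells. It was at 5.4 in d16 2, 3.81 in p95 3, 1.97 in p95 2 and 1.76 in p95 5, and was not detected in the 17 and 15 neutrophils of multiparous 1 and 3, where 3 UMIs would be a level of 2.17 and 1.72. Over both, 3 of 31234 UMIs would be a level of 0.960, below the other 4 levels. Those levels also rest on few UMIs, from 2 in 1 cell of p95 5 to 11 in 6 cells of p95 3. The gene was too sparse to enter the parity test, so no difference by parity is read. Cxcr4, which retains neutrophils in the marrow, was at 2.16 to 5.75 in the 6 tumours.

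Granule genes differed by the stage at which neutrophils make them. The 7 primary granule genes, among them Mpo (myeloperoxidase), Elane (elastase) and Prtn3 (proteinase 3), gave 0 UMIs in the 6 tumours, where 3 UMIs would be a level of 0.297, and the 5 markers of dividing cells also gave 0. The list of 9 secondary granule genes gave 417 UMIs and summed to 7.03 in p95 5 and 87.8 in p95 2, with Lcn2, given below, among them. Its members named next were present in few cells. Ngp (neutrophilic granule protein), Ltf (lactoferrin) and Camp (cathelicidin) were found in 5 of the 149 neutrophils, 3 of them in p95 2, 1 in d16 2 and 1, with a single UMI, in multiparous 1. A UMI of any of the 3 was found in 3.36% of neutrophils and in 18.4% of the deeper epithelial cells, where Ltf made up nearly all (18.3%, against 0.122% for Ngp and 0 for Camp). One p95 2 cell carried 52 of the 69 UMIs of these 3 genes. The 3 p95 2 cells had Cxcl2 at 26.5 and Il1b at 3.31 per 10000, and the other 33 neutrophils of the tumour had 176 and 66.7. One of the 3, with 1302 UMIs, also held all 25 UMIs of the lymphocyte gene Gzma, and another rested on 1 UMI of Ltf. The 1 cell of d16 2 had Cxcl2 at 38.1, no Il1b, and Retnlg at 343, against 116, 99.4 and 37.7 in the other 12. Leaving such cells aside, p95 2 and d16 2 still had the lowest Cxcl2 and Il1b of the 6 tumours.

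Retnlg and Wfdc21 were highest in d16 2 and p95 2, the tumours with the lowest Cxcl2. Retnlg, a resistin-like secreted protein of blood and marrow neutrophils, was at 81.0 in d16 2, 13.8 in p95 2, 7.03 in p95 5, 1.44 in multiparous 1, 1.15 in multiparous 3 and 0.692 in p95 3. Only 19 neutrophils held it, and 1 cell of d16 2 held 45 of its 121 UMIs. Without that cell d16 2 was at 37.7, still above the other 5 tumours. Wfdc21, a whey acidic protein domain gene of neutrophils, was at 27 in d16 2 and 17.8 in p95 2 and between 0 and 4.33 in the other 4. It was spread over 12 cells of p95 2 and 6 of d16 2. Lcn2 (lipocalin 2, which binds bacterial siderophores) was at 49.3 in p95 2 and 48.6 in d16 2 and from 4.39 to 21.8 elsewhere, but epithelial cells of these tumours carried 75.5, and the part of free epithelial RNA was not tested. p95 2 and d16 2 share a title number. They are also the only 2 of the 6 whose tables kept gene names intact, where the other 4 had 27 names turned into dates, and file layout and tumour cannot be told apart. Tertiary and secretory granule genes were even, with a sum of 58.6 to 77.7. Among them Slpi, a protease inhibitor, was at 19.7 ± 7.03, Mmp9 (gelatinase B) at 9.54 ± 4.36 and Hp (haptoglobin) at 9.22 ± 4.64 (SD, n = 6).

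The genes named for tumour neutrophils gave a mixed picture. Their list summed to 836 per 10000 in p95 3, 764 in p95 5, 659 in multiparous 1, 469 in multiparous 3, 421 in p95 2 and 366 in d16 2, and it contains Ccl3, Ccl4 and Cd14. Of its 28 measured members 9 exceeded other kept cells in all 6 tumours, beside 19.0% of genes. Cd274, which encodes PD-L1, the ligand that restrains T cells, was at 20.2 in multiparous 1, 10.3 in multiparous 3, 10.04 in p95 3, 6.42 in p95 2, 4.39 in p95 5 and 1.08 in d16 2. Siglecf, a lectin reported in tumour neutrophils and eosinophils, gave 17 UMIs in 11 of the 149 cells, and eosinophil granule genes Prg2, Epx, Ear1 and Ear2 gave none. Ptgs2, the cyclooxygenase that makes prostaglandins, was at 15.2 in p95 3, 14.9 in p95 5 and 14.4 in multiparous 3 and at 1.08 to 2.89 in the other 3. Vegfa and Arg1 were no higher than in the other kept cells on average, at 2.36 against 5.06 and 0.115 against 0.943. Nfkbia, the feedback inhibitor of NF-kB, was at 71.4 ± 21.0 (SD, n = 6), against 18.4 in macrophages, and a UMI of it was held by 87.9% of neutrophils and 71.5% of the deeper epithelial cells.

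MHC class II genes gave few UMIs, and interferon response and oxidase genes were uneven across tumours. Interferon response genes summed to 19.5 in multiparous 3 and 45.3 in d16 2, against 21.0 in macrophages, and 3 of 25 exceeded other kept cells in all 6 tumours, beside 19.0% of genes. Slfn4, a Schlafen gene of myeloid cells, was at 8.90 ± 5.07, and Isg15 gave 11 UMIs. The list of NADPH oxidase and killing genes gave 524 UMIs, a sum of 35.6 to 84.2 against 13.2 in other kept cells and 85.3 in macrophages. Of its 12 members 5 exceeded other kept cells in all 6 tumours, beside 19.0% of genes. Within it Ncf1 and Ncf4, cytosolic oxidase subunits, were at 5.0 ± 2.32 and 10.7 ± 4.55 (SD, n = 6). Rac2 was at 12.7 ± 8.37 (SD, n = 6), and Cybb, the catalytic subunit, gave 6 UMIs. MHC class II genes gave 46 UMIs in all, a sum of 0.575 to 10.8 against 324 in macrophages. Glycolysis and hypoxia genes were at the level of other cells, with a sum of 57.1 to 78.2 against 74.0.

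Transcription factors and survival genes completed the lists. Cebpb, a C/EBP factor of mature and activated granulocytes, was at 56.1 in d16 2 and from 32.9 to 42.2 in the other 5, and a UMI was held by 77.2% of neutrophils and 77.1% of epithelial cells. Cebpe and Gfi1, which act in granule-forming precursors, gave 2 UMIs each, and Cebpa gave 0. Mcl1, on which neutrophil survival depends, was at 34.0 in multiparous 1 and 11.9 to 23.5 in the other 5. Bcl2a1b was at 15.9 in multiparous 1, 9.20 in multiparous 3, 7.96 in p95 3, 6.15 in p95 5, 0.987 in p95 2 and 0 in d16 2. Its near-identical copies Bcl2a1a and Bcl2a1d can share reads with it, so the split among the 3 is uncertain. The same holds for the stefin cluster, whose members Gm5483 and Stfa2l1 led all genes in their ratio to other cells, at 26.5 ± 22.2 and 14.7 ± 10.2 (SD, n = 6). Over 65 of the leading and listed genes with 100 or more UMIs, the SD over the 6 tumours was between 0.174 and 2.28 times the mean, with a median of 0.562. Fth1 (ferritin heavy chain), at 471 to 739, varied least, and Krt14, Col1a2, Retnlg and Tnf varied most.

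**Figure D3:**
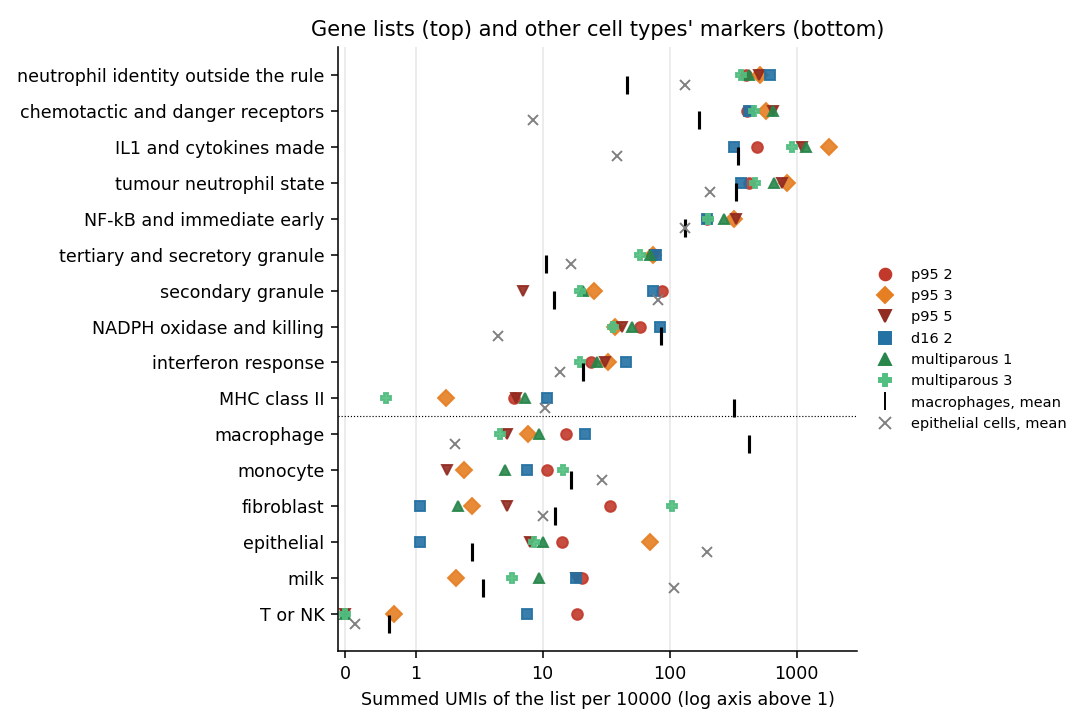
Summed level of each gene list (above the dotted line) and of markers of other cell types (below it), as UMIs per 10000 on a log axis above 1, in the neutrophils of 6 tumours, with means in macrophages (bar) and epithelial cells (cross). The cytokine list spreads from 319 to 1807, the receptor list from 405 to 655, and the fibroblast and epithelial markers stand out in multiparous 3 and p95 3.

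RNA of other cell types was present and unevenly spread. Macrophage markers, 10 genes, summed to 4.60 to 21.6 per 10000 against 423 in macrophages, and Trem2 was at 0. Monocyte markers summed to 1.76 to 14.4, with Ccr2 and Ms4a6c at 0. Fibroblast markers were at 103 in multiparous 3, 34.0 in p95 2 and 1.08 to 5.27 elsewhere, and all 7 were detected. One multiparous 3 cell of 4816 UMIs, the deepest of all neutrophils, held 27.7% of that tumour's neutrophil UMIs, 153 of the 179 UMIs of 5 collagen and matrix genes and 1.02% S100a8 and S100a9, just past the threshold. In p95 2, 1 cell of 1999 UMIs held 51 of the 63 UMIs of the same 5 genes, and without it their level was 6.57. Epithelial markers were at 70.3 in p95 3 and 1.08 to 14.3 elsewhere, and 1 p95 3 cell of 2740 UMIs held 456 of its 464 UMIs of basal and squamous keratin genes. T and NK cell markers were at 18.8 in p95 2, where the cell described above held all 25 UMIs of Gzma (granzyme A). Milk protein genes were at 2.08 to 20.2. Whether such droplets held 2 cells was not tested directly. Scrublet, which scores cells against simulated doublets, marked 6 of the 149 among its highest 5% per tumour. It marked 0 neutrophils of multiparous 3 and p95 3, so the 4816-UMI and 2740-UMI cells were not among the 6. Of the 8486 barcodes, 29 occurred in more than 1 tumour's table, 1 of them a neutrophil.

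Cells on either side of the threshold on S100a8 and S100a9 are given with no test. The 46 cells with S100a8 and S100a9 at 1% to under 2% had Cxcl2 at 467, Il1b at 141 and Ccl3 at 162 per 10000. The 35 cells from 0.5% to under 1% that met every other condition had 773, 270 and 278. The stefin genes Gm5483 and Stfa2l1 were at 14.6 and 9.63 just inside and at 8.20 and 0.390 just outside. Cells with no UMI of S100a8 or S100a9 that met the other conditions (188) included 6 with mast cell transcripts and had H2-Aa, a class II gene, at 68.9 against 0.520 in the 46. The bands pool tumours. Within tumours Cxcl2 was higher just outside in p95 3, multiparous 1 and multiparous 3 and lower in p95 2, p95 5 and d16 2. Il1b was higher just outside in p95 2, p95 3, p95 5, multiparous 1 and multiparous 3 and lower in d16 2. Ccl3 was higher just outside in p95 3, p95 5, multiparous 1 and multiparous 3 and lower in p95 2 and d16 2. In d16 2 the band just outside was 1 cell.

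The form of HER2 could not be tested for gene levels, because d16 2 was the only d16 tumour with 10 or more neutrophils. Set beside p95 2, p95 3 and p95 5, its neutrophils lay below all 3 for Cxcl2, Ccl3, Ccl4, Cxcl3, Il1rn and Cd274 and above all 3 for Retnlg, Wfdc21, Mmp8, Cebpb and Il1r2. These genes were picked after their values were seen, and they are values of 1 tumour with 9262 UMIs. All Mmp8 UMIs of d16 2 lay in 1 cell, and its other 12 neutrophils were at 0. p95 2 shares a title number and file layout with d16 2, and p95 3 and p95 5 have the other layout. Form of HER2, layout and tumour cannot be told apart. Solid nodular tumours had no tumour with 10 neutrophils, so no gene value is given for them.

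Parity could be tested with 2 multiparous tumours (17 and 15 neutrophils) and 4 nulliparous ones. No gene passed: of 295 genes outside the rule tested with edgeR's quasi-likelihood test, 0 (0%) had a Benjamini-Hochberg adjusted p under 0.05, and 12 had an unadjusted p under 0.05. DESeq2 and limma voom also called 0, with 11 and 9 at an unadjusted p under 0.05. Levels of the 2 multiparous tumours lay wholly above or below the 4 nulliparous ones for 35 of the 295 genes, or 11.9%. Both multiparous tumours were mixed in phenotype and no nulliparous one was, so parity and phenotype cannot be told apart.

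Of the 10 genes with the smallest p, 9 are given as values. Il1f9, which encodes interleukin 36 gamma, an epithelial alarmin of the interleukin 1 family, was at 26.4 in multiparous 3 and 20.2 in multiparous 1, against 6.23 in p95 3, 5.92 in p95 2, 4.32 in d16 2 and 3.52 in p95 5. Both multiparous values lay above all 4 nulliparous ones, with group means of 23.3 ± 4.40 (SD, n = 2) and 5.0 ± 1.30 (SD, n = 4). The log2 difference was 2.19 ± 0.53 (SE), with edgeR adjusted p = 0.431. The gene was held by 9 of 17 and 9 of 15 multiparous neutrophils and by 8 of 36, 14 of 42, 3 of 16 and 3 of 13 nulliparous ones, and by 0.549% of epithelial cells. Without the richest cell of each, the 2 multiparous tumours were at 16.1 and 17.0, still above the other 4. Its log2 difference stayed between 1.86 and 2.41 over 16 other settings, with adjusted p from 0.0512 to 0.982.

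Tnfrsf1b (TNF receptor 2) was the other neutrophil gene with higher multiparous values, at 18.8 and 12.6 against 5.4 to 7.62. Sparc, a matrix protein of fibroblasts, was at 64.4 in multiparous 3, 6.50 in multiparous 1 and 0 to 15.8 in nulliparous tumours, and 110 of its 162 UMIs lay in the 4816-UMI cell. Without that cell multiparous 3 was at 1.59. Among the genes with lower multiparous values, Ifitm2 was at 3.61 and 2.87 against 9.67 to 17.3, a log2 difference of -1.98 (edgeR adjusted p = 0.791). Wfdc17, a whey acidic protein domain gene of myeloid cells, was at 13 and 7.47 against 19.3 to 50.7. Glrx (glutaredoxin), Mcemp1 (a mast cell and myeloid membrane protein) and Rps26 (a ribosomal protein) gave 59, 52 and 63 UMIs and were at 2.87 or lower in both multiparous tumours. Retnlg, at 1.44 and 1.15, overlapped the nulliparous range of 0.692 to 81.0.

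**Figure D4:**
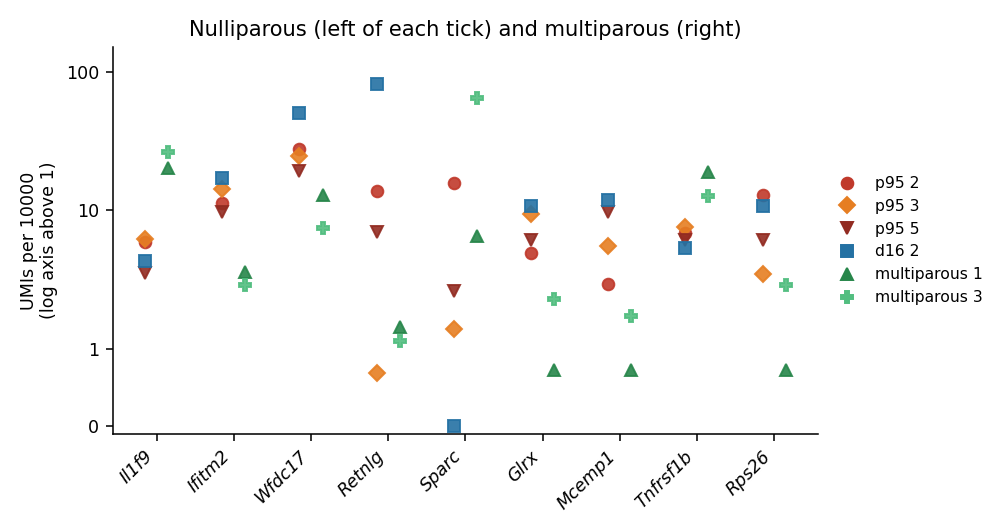
Levels (y axis, UMIs per 10000, log above 1) of 9 of the 10 genes with the smallest unadjusted p for parity (x axis) in the neutrophils of 4 nulliparous tumours (left of each tick) and 2 multiparous tumours (right). Il1f9 and Tnfrsf1b are higher in both multiparous tumours, and Retnlg and Sparc overlap.

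Gene lists are given by their counts. Among the 13 cytokine genes tested, 7 were lower and 6 higher in multiparous tumours, with a median log2 difference of -0.0006, beside 151 lower and 144 higher and a median of -0.02 over all 295. The 14 receptor genes gave 6 and 8, with a median of 0.02, and the 15 NF-kB and immediate early genes 8 and 7, with -0.08. The 28 neutrophil identity genes gave 19 lower and 9 higher, with a median of -0.51, and 6 of them did not overlap, beside 11.9% of the 295. None of the 28 passed the test.

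Other settings called a few genes, and 2 cells held most of their UMIs. With no low-count filter 10 of 7552 genes (0.132%) passed with edgeR. Krt16, Krt6b, Cnfn, Sbsn and Klk6, genes of squamous epithelium, were called lower in multiparous tumours, and all their UMIs lay in the 2740-UMI cell of p95 3. Col1a2, Postn, Tagln and 1500015O10Rik were called higher, with 92 of 118, 55 of 63, 16 of 23 and 21 of 24 UMIs in the 4816-UMI cell of multiparous 3. Retnlg, called lower, was the remaining gene. Among date-like tables alone, a choice made after seeing the data, Sparc was the 1 gene called of 227 (0.441%). With both cells left out, also chosen after seeing the data, 0 of 233 genes passed with edgeR, and 13 had an unadjusted p under 0.05.

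Last, the attractants were measured in the other kept cells of all 12 tumours and set against the neutrophil share. These cells are not members, but they include the 35 cells with S100a8 and S100a9 at 0.5% to under 1% that met every other condition. Free RNA was not removed, and neutrophils themselves held Cxcl3 at a mean of 52.1 per 10000. Levels in other cells may thus hold some neutrophil RNA, which was not tested. Cxcl3 in other cells was highest in multiparous 3 (5.86 per 10000), p95 3 (4.31), p95 5 (3.50) and p95 2 (3.39), and lowest in d16 1 (0.450), p95 1 (0.858) and multiparous 2 (1.02), the 3 tumours without neutrophils. Over the 12 tumours Spearman's rho with the log2 level was 0.894 (permutation p = 0.00018, adjusted over 6 genes p = 0.00108) and Pearson's r was 0.631 (permutation p = 0.0284, adjusted p = 0.0852). Without the 2 tumours farthest from the median level, d16 1 and p95 1, r was 0.578, and within the 8 date-like tables r was 0.601 and rho 0.857 (permutation p = 0.140 for r). In cells with 0 UMIs of the 6 neutrophil genes r was 0.593 and rho 0.782, in epithelial cells alone 0.493 and 0.507, and in macrophages alone 0.410 and 0.648, all chosen after seeing the data. The unadjusted permutation p of rho was 0.00369, 0.0960 and 0.0274 in these 3 sets. The linear relation over all other cells did not pass after adjustment.

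Ppbp, which encodes the CXCR2 ligand CXCL7, split the tumours in 2 sets. It was at 0.298 in p95 3, 0.290 in p95 5, 0.257 in multiparous 3 and 0.162 in p95 2, the 4 tumours with the highest neutrophil shares (2.56% to 6.65%). The other 8 were at 0.0363 or lower, 5 of them at 0, with shares of up to 2.49%. Because of this gap no coefficient over all 12 is given; within the lower 8, r was 0.717 (exact permutation p = 0.125). Only 216 UMIs of Ppbp were counted, 169 of them in epithelial cells, and neutrophils held 1. For Cxcl1, Cxcl2, Cxcl5 and Csf3 the relation did not pass, with r of 0.256, 0.498, 0.452 and -0.05 and permutation p of 0.420, 0.0954, 0.137 and 0.867. Their rho values were 0.261, 0.444, 0.514 and -0.211. Csf3, the growth factor that drives neutrophil production, ran from 0.620 in p95 5 to 2.62 in p95 4.

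**Figure D5:**
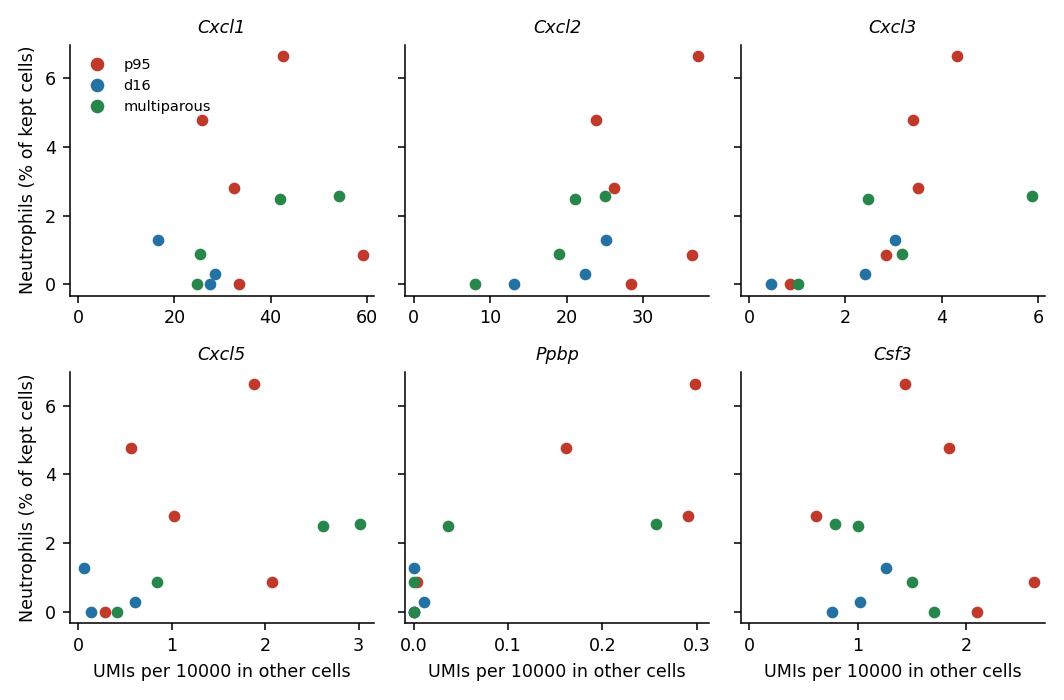
Neutrophil share (y axis, percent of kept cells) against the level of 6 attractants in the other kept cells (x axes, UMIs per 10000), 1 point per tumour, coloured by group. The Cxcl3 points climb with the share, and the Ppbp points lie in 2 sets, 8 at 0.0363 or lower and 4 at 0.162 to 0.298.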

How the data were processed

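Per the labels, dissociated cells of 12 tumours were captured on the ddSEQ platform and sequenced as 3′ single-cell libraries. The deposited tables hold UMI counts per gene and cell barcode, made by the authors. Seurat 3.0.2 and build GRCm38 are named in the submitters' processing notes. The aligner, counting, annotation and cell calling are not given in the sources used here. The tables had 24421 genes and 8486 barcodes. In the tables of 8 tumours, 27 gene names had been turned into dates and were mapped by position, and 1714 names in all were restored. Of the names, 23375 are in GENCODE M21.

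The neutrophils and gene lists were chosen with earlier results of these data known. Cells with 200 or more detected genes were kept. Doublets were scored with scrublet in scanpy 1.11.5; the highest 5% of scores per tumour (363 cells) were marked and kept. Free RNA was not removed. Macrophages had 3 or more C1q UMIs, and epithelial cells 3 or more UMIs of Epcam, Krt8 and Krt18. Shares were compared over tumours with exact permutation tests (scipy 1.17.1). UMIs were summed over the neutrophils of each tumour with 10 or more and tested with edgeR 4.0.16 (quasi-likelihood, TMM, filterByExpr, R 4.3.3), with DESeq2 1.42.0 and limma 3.58.1 as alternatives and Benjamini-Hochberg adjustment over all genes. Chemokine levels entered correlations as log2(CPM + 1), with 100000 permutations. Genes named are the 25 with the highest ratio to other cells, the 10 with the smallest p for parity (1 of them is not reported here), and list members. On simulated data for the parity test (337 genes), the share of changed genes recovered was 9.52%, 34.9% and 75% at log2 changes of 1, 2 and 3.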

Additional observations from a re-analysis of the deposited data

Results flagged for a closer look

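Of 95 groups of 4 to 10 values, 9 had 1 tumour far from the rest by Dixon's criterion. Chance flags about 1 in 20 groups of continuous values, and that rate does not hold for sparse counts. Ltf, Camp and erythroid markers, at 0 in all but 1 tumour, were bound to be flagged. The 9 are thus not read against that rate. Among nulliparous tumours, d16 2 stood apart for Retnlg (81.0 UMIs per 10000 against 0.692 to 13.8), for Mmp8 (7.56, all in 1 cell, against 0 to 0.987) and for erythroid markers (2.16, which is 2 UMIs, against 0). In p95 2 the secondary granule genes Ltf (8.88) and Camp (4.44) stood apart from 0 in the other 3 tumours. Fibroblast markers of p95 2 were at 34.0 against 1.08 to 5.27, with most of their UMIs in 1 cell. Neutrophils of p95 3 stood apart for Tnf (54.4 against 1.08 to 4.44) and for milk protein genes (2.08 against 18.4 to 20.2). Among multiparous tumours, Ppbp in cells other than neutrophils was at 0.257 in multiparous 3 and 0 to 0.0363 in the other 3.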

How the results depend on the processing

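The difference in neutrophil share between multiparous and nulliparous tumours turned from -0.600 to 0.0495 percentage points with 500 detected genes required and to 0.0525 without p95 3, and ranged from -0.960 to 0.0525 when 1 tumour at a time was left out. Over the same omissions d16 minus p95 ranged from -3.24 to -1.58 and solid nodular minus metaplastic from -2.48 to -1.37, and none of their 18 and 19 alternatives changed direction or passed the test. With labels permuted within the 2 pairs that share a title number (replicate block), d16 minus p95 had an exact permutation p of 0.25. No paired analysis of genes was possible because the tumours with enough neutrophils gave no estimable block correlation.

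For Cxcl3, Pearson's r with the share was 0.493 in epithelial cells alone (permutation p = 0.10) and 0.410 in macrophages alone (p = 0.134), and ranged from 0.589 (without p95 1, permutation p = 0.0553) to 0.667 with 1 tumour left out. For Cxcl1 r was -0.0820 in epithelial cells alone. For Csf3 r was 0.516 in macrophages alone and ranged from -0.195 to 0.0517 with 1 tumour left out, being above 0 without p95 1 (0.0517), p95 4 (0.0295), p95 5 (0.0182) or multiparous 2 (0.00442). The causes were not tested. Analyses restricted to 1 cell class or layout, or without the 2 deepest neutrophils, were chosen after seeing the data.

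The count of genes called for parity was 10 without a low-count filter, 1 among date-like tables, and 0 to 0 with 1 tumour left out. With file layout as a covariate, added after seeing the data, 0 of 295 genes passed with edgeR, 30 had an unadjusted p under 0.05, and the Retnlg difference shrank from -4.13 to -1.14; all multiparous tumours are of 1 layout. Of 147 refits of the 10 named genes 145 kept their side of the threshold, and none changed direction. Retnlg (-3.98 on the log2 scale without a filter, edgeR adjusted p = 0.0308) and Sparc (4.51 among date-like tables, adjusted p = 0.00105) passed. Not run for genes, because too few tumours remained, were 20 or more neutrophils per tumour, 500 detected genes, 3% S100a8 and S100a9, and the tests by form of HER2 or by solid nodular phenotype. With 13 to 42 shallow neutrophils per tumour, small changes were mostly below what the parity test recovers.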
